A study of Rattus norvegicus with 10 samples.

Results

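Regions at the low-coordinate ends of 18 rat autosomes were examined, chromosomes 1 to 19 without chromosome 12. A captured region was taken as a member where its start lay within 2 Mb of the smallest start listed for its chromosome. This gave 6206 members out of 716492 regions in all, and the other 668078 regions of the same chromosomes served as the rest. Methyl-capture sequencing had been done on 10 adult male Sprague-Dawley rats, 5 sham-operated and 5 with traumatic brain injury (TBI), 3 months after the operation. TBI was given by lateral fluid percussion over the left parietal lobe. Sham rats had the same anaesthesia and craniectomy without the impact, so both groups carry the effects of surgery. The tissue was the CA3 field and dentate gyrus of the left hippocampus, taken as a piece that holds neurons, glia and vessels together, and the DNA of each rat was captured and sequenced separately. The DNA files hold no markers by which the tissue could be checked. Rats are numbered 1 to 5 within each group.

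Chromosome ends carry telomere repeats, and the DNA next to them is often built of repeated and duplicated blocks that differ between individuals and are hard to assemble. Rat chromosomes differ in where the centromere sits. In telocentric chromosomes the low-coordinate end is also the centromere end, in subtelocentric chromosomes a very short arm lies before the centromere, and in metacentric chromosomes the low-coordinate end is the tip of a true arm. Centromeres consist of tandem satellite repeats, and in mammals such repeats and CpG-rich DNA near chromosome ends are commonly methylated. Methyl-capture pulls down DNA fragments that carry methylated CpGs, so the tag count of a region depends on how many CpGs it holds as well as on how many of them are methylated. Several copies of a repeat that the assembly represents by a single copy add their tags together at that place.

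Total tags per library ranged from 13597924 to 21672940. Sham rat 5 stood apart from the other 9 rats. Only 0.902% of the members had no tag in this rat, against 11.5% to 23.7% of the members in the others. The same held in the rest of the chromosomes, with 0.478% against 6.70% to 16.6%. At 1152 members (18.6%) sham rat 5 held at least 50% of the tags summed over rats in CPM, the usual scaling of tag counts to the library total, against 12.0% of the rest, a cut chosen after the values were seen. Results that rest on sham rat 5 are therefore given with and without it, and its part in the lower region density described next was not tested.

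The low-coordinate ends held fewer captured regions than the rest of the same chromosomes. Members lay at 172 regions per Mb, against 276 per Mb in the rest and 216 per Mb in the last 2 Mb at the opposite ends of these chromosomes. The ratio of ends to rest was 0.624, with a 95% interval of 0.609 to 0.640 that covers counting error alone (Wilson). Members covered 11.3% of the sequence span of the ends, while regions covered 19.4% of the rest. The matrix is a single list for all rats, so density has no replicates and was not tested. When only regions at or above the 50th percentile of the tag sum were counted, the density ratio was 0.514.

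Density rose with distance from the first region. The first 0.5 Mb held 153 regions per Mb and the next 3 steps of 0.5 Mb held 179, 160.1 and 198. Just outside the 2 Mb limit density was 246 per Mb between 2.0 and 2.5 Mb and 276 between 2.5 and 3.0 Mb, the same as in the rest as a whole. From there up to 7.0 Mb it varied between 228 and 286 per Mb. With ends defined as 1 Mb the ratio was 0.602, and with ends of 5 Mb it was 0.833. The median region carried 1.06 CPM per kb of region length in the first 0.5 Mb and 0.946 between 1.5 and 2.0 Mb, against 1.19 between 2.5 and 3.0 Mb. It was 1.025 between 2.0 and 2.5 Mb, and 1.23 and 1.22 in the steps from 3.0 to 4.0 Mb, near the 1.22 of the rest. From 4.0 to 5.0 Mb it was lower again, with 1.08 and 1.15, and from 5.0 to 7.0 Mb it was 1.28 to 1.38. The lower level of the median region was thus not confined to the first 2 Mb.

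**Figure D1:**
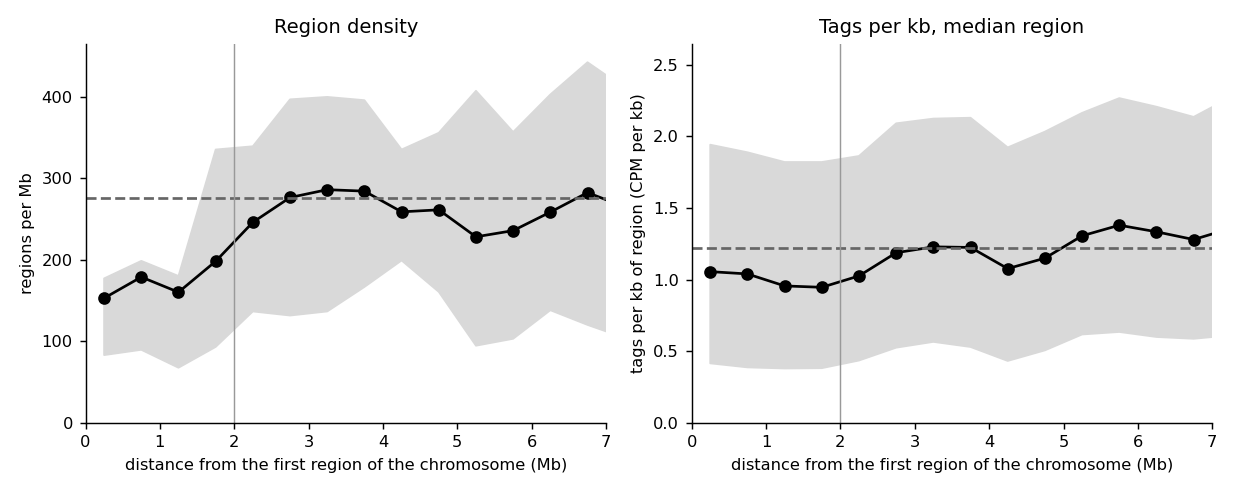
Left, captured regions per Mb in steps of 0.5 Mb from the first region of each of 18 autosomes (points, pooled over chromosomes; grey band, quartiles over chromosomes). Right, median tags per kb of region in CPM per kb (points; grey band, quartiles over regions). The dashed lines give the rest of the chromosomes, 276 regions per Mb and 1.22 CPM per kb, and the vertical line marks 2 Mb. Both measures lie under the dashed line in the first 2 Mb.

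Chromosomes differed widely in this. Density was lower in the end than in the rest on 15 of 18 chromosomes. The lowest values were 53.0 regions per Mb on chromosome 1, 71.0 on chromosome 8 and 79.0 on chromosome 13, against 272, 310.4 and 259 in the rest of these chromosomes. Of the 64 complete windows of 2 Mb on chromosome 8, 1 held fewer regions than its end. The 3 exceptions were chromosomes 17, 16 and 6, whose ends held 396, 368 and 338 regions per Mb against 301, 273 and 265 in their rest. Over all 18 chromosomes, 7 ends lay in the lowest 10% of the 2 Mb windows of their chromosome. On 11 of 18 chromosomes the low-coordinate end held fewer regions than the last 2 Mb. The longest stretch without regions in any end was 350.3 kb, on chromosome 14, and the other 17 ends had none of over 200 kb.

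Grouped by the standard rat karyotype, the 4 subtelocentric chromosomes (1, 3, 11 and 13) had the sparsest ends, with 91.6 regions per Mb and a range of 53.0 to 117.5. The 8 telocentric chromosomes (2 and 4 to 10) had 163 per Mb with a range of 71.0 to 338, and the 6 metacentric chromosomes (14 to 19) had 239 per Mb with a range of 116.5 to 395.5. The ranges of all 3 groups overlapped, and the end of the telocentric chromosome 8 (71.0) was sparser than 3 of the 4 subtelocentric ends. The order of the groups was different for the level of the median region. It was 0.790 CPM per kb in the metacentric ends against 1.27 in their rest, but 1.21 against 1.21 in the telocentric and 1.17 against 1.20 in the subtelocentric chromosomes. The metacentric ends were also those with the largest share of members dominated by sham rat 5 (21.9%, against 15.3% in the telocentric and 16.9% in the subtelocentric ends). The grouping is given as a description with no test. By single chromosomes, the median level was lower in the end than in the rest on 10 of 18.

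**Figure D2:**
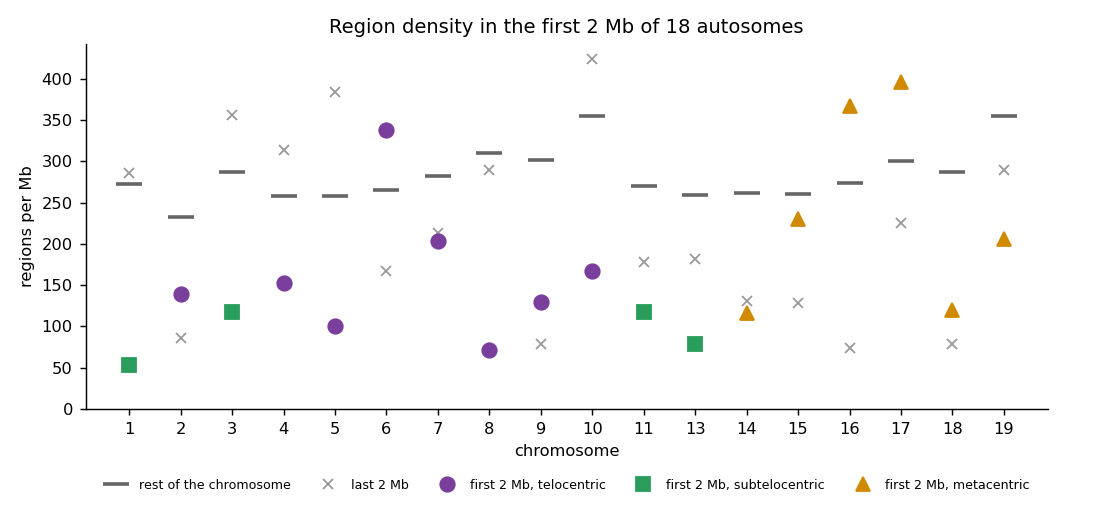
Captured regions per Mb for each of 18 autosomes, in the first 2 Mb (coloured symbols by chromosome shape), in the rest of the chromosome (grey bars) and in the last 2 Mb (grey crosses). The first 2 Mb lie below the rest on 15 chromosomes and above it on chromosomes 6, 16 and 17.

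Member regions were shorter than other regions. Their median length was 523 bp (quartiles 400 and 717 bp), against 571 bp (426 and 817 bp) in the rest and 543 bp at the opposite ends. The ratio of medians was 0.916, with a 95% binomial interval of the member median of 0.905 to 0.930. Regions of 1 kb or more made up 11.4% of members and 16.5% of the rest. The median was shorter in the end than in the rest on 16 of 18 chromosomes. It was lowest at the ends of chromosomes 1, 11 and 13 (443.5, 454 and 455 bp). It was highest at the ends of chromosomes 2, 6 and 17 (640.5, 616.5 and 558 bp), and chromosomes 2 and 6 were the 2 ends with longer regions than their rest (546 and 562.5 bp).

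Typical members carried fewer tags per kb than other regions, while a few members carried very many. The median member had 1.00 CPM per kb (quartiles 0.390 and 1.87), against 1.22 (0.544 and 2.11) in the rest and 1.06 at the opposite ends. Members were also below the rest at equal length, with 0.810 against 0.878 CPM per kb under 400 bp, 1.30 against 1.495 from 600 bp up to 1 kb, and 1.90 against 2.17 from 1 kb up to 2 kb. At 2 kb or more the order turned, with 3.52 CPM per kb in 134 members against 3.10 in the rest. Dividing all member tags by all member length gave 2.18 CPM per kb, which was above the 1.93 of the rest. Member tags were also concentrated in few regions. The 1% of members with the most tags, not scaled by length (62 regions), held 32.2% of member tags. The top 1% of the rest by the same ranking held 12.4% of its tags.

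In each rat the pooled tags per kb of members were above those of the rest. The ratio of ends to rest was 1.173, 1.097, 1.174, 1.222 and 1.056 in sham rats 1 to 5 and 1.115, 1.135, 1.113, 1.101 and 1.086 in TBI rats 1 to 5. The mean log2 ratio was 0.17 ± 0.06 (SD, n = 10), positive in 10 of 10 rats (exact sign-flip permutation test over rats, two-sided, p = 0.00195, the smallest p that 10 rats allow). This excess rested largely on a single region. Without the most densely tagged member, an alternative added after the values were seen, the ratio fell to between 1.005 and 1.088 and the mean log2 ratio to 0.04 ± 0.04 (p = 0.00195 in the same exact test, 10 of 10 rats above 0). The ratio of the median region's tags per kb went the other way in all 10 rats, from 0.725 to 0.904, with a mean log2 ratio of -0.36 ± 0.09 (exact sign-flip permutation p = 0.00195). Giving each chromosome equal weight also turned the sign, to -0.04 ± 0.03 on the log2 scale (exact sign-flip permutation p = 0.0117, negative in 8 of 10 rats). The pooled tags per kb were lower in the end than in the rest on 12 of 18 chromosomes, so the higher total came from the other 6.

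Densely tagged members were few, and 12 of the 24 lay in 3 clusters. At least 10 times the median of the rest, or 12.2 CPM per kb, was reached by 24 members (0.387%), by 335 regions of the rest (0.0501%) and by 4 regions at the opposite ends (0.0515%). This cut was chosen after the values were seen. Of the 24, 8 lay on chromosome 3, 6 on chromosome 2, 5 on chromosome 18, 3 on chromosome 7 and 1 each on chromosomes 5 and 15. All 5 of chromosome 18 lay between 136832 and 161100, a stretch of 24.3 kb, and 4 of those of chromosome 3 lay between 121508 and 166665, a stretch of 45.2 kb. The 3 of chromosome 7 spanned 13.5 kb. The others were spread out, those of chromosome 2 between 49012 and 984206. The densely tagged members together held 18.9% to 25.7% of the member tags in 9 rats and 10.8% in sham rat 5, which had the lowest level of all 10 rats at 19 of the 24. The ends with the most pooled tags per kb were those of chromosomes 3, 18 and 7 (9.31, 4.50 and 2.75 CPM per kb, against 1.91, 1.90 and 2.06 in their rest). The lowest were those of chromosomes 17, 4 and 16 (1.16, 1.16 and 1.28 CPM per kb), where no member reached this level. But the ends of chromosomes 5 and 15, with 1 such member each, lay below their rest (1.62 and 1.29 against 1.96 and 1.86). Those of chromosomes 6 and 14, without any, lay above theirs (2.22 and 2.16 against 1.84 and 2.00).

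The most densely tagged member was chr3:143742-145177 (positions on the RN4 assembly, as deposited), a region of 1435 bp that starts 132 kb after the first region of the chromosome. It held 12480, 10592, 19351, 21819 and 6020 tags in sham rats 1 to 5 and 11257, 14739, 16712, 14222 and 13203 tags in TBI rats 1 to 5. These made up between 7.25% and 11.1% of all member tags in 9 rats and 3.84% in sham rat 5. At 549.7 CPM per kb, the mean over rats, it stood 451 times above the median of the rest. The region has 2870 start positions on both strands, and each rat had more tags than that, from 4.195 to 15.2 tags per base. If each location on each strand kept a single read, as the study's removal of duplicates describes, no region could hold more than about 2 tags per base. Of the 6206 members, 2 exceeded 2 tags per base in at least 1 rat and 1 in every rat. In the rest, a far larger set of 668078 regions, 37 and 11 did so. How the extra tags came to be counted there was not tested.

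The next 4 by tags per kb were chr3:555391-557427 with 88.5 CPM per kb, chr2:771091-772469 with 42.4, chr2:135896-136649 with 40.6 and chr7:955112-957254 with 32.5. In comparisons of single regions below, CPM refers to the tags in all tested regions and is scaled by the trimmed mean of M values (TMM). The level of chr3:555391-557427 was 276, 150.4, 231, 272 and 102 CPM in sham rats and 231, 173, 204, 145 and 218 CPM in TBI rats. For the most densely tagged member it was 1021, 818, 1022, 1197 and 408 CPM in sham rats and 887, 1064, 843, 815 and 684 CPM in TBI rats. In both regions sham rat 5 was the lowest of 10 and the groups overlapped. Their log2 fold changes, TBI over sham, were -0.09 ± 0.23 and -0.06 ± 0.24 (SE), with an adjusted p of 1 in edgeR. None of the 24 densely tagged members had an unadjusted p under 0.01 in edgeR with all rats or without sham rat 5. Their log2 fold changes ranged from -0.53 to 0.12 with a median of -0.09 and were negative in 17 of 24. Without sham rat 5, which was the lowest rat at most of these regions, they ranged from -0.34 to 0.05 with a median of -0.21 and were negative in 22 of 24. Sham rat 4 was the highest of 10 rats at 15 of the 24. Without sham rat 4 the 5 members with the most tags per kb had log2 fold changes of 0.07, 0.03, 0.006, -0.03 and -0.05, in the order named above. Over all tested regions 46.5% of fold changes were positive with all rats and 49.5% without sham rat 5.

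To ask whether TBI altered the capture of the chromosome ends as a whole, the percent of each rat's tags on the 18 chromosomes that fell into members was compared. It was 1.01%, 0.946%, 1.01%, 1.05% and 0.910% in sham rats 1 to 5 and 0.960%, 0.977%, 0.958%, 0.948% and 0.936% in TBI rats 1 to 5. Sham rats spread over a wider range than TBI rats, and all TBI values lay inside it. The means were 0.986% ± 0.0569 in sham and 0.956% ± 0.0154 in TBI rats (SD, n = 5 each), a difference of -0.0296 percentage points (exact permutation test over rats, two-sided, p = 0.302). Without sham rat 5 the sham mean was 1.005% ± 0.0440 and the difference was -0.0485 percentage points (exact permutation p = 0.0635). Without sham rat 4, the highest, the difference was -0.0130 (exact permutation p = 0.595). Without the most densely tagged member the values were 0.900% ± 0.0289 in sham and 0.871% ± 0.00306 in TBI rats, with the difference at -0.0285 (exact permutation p = 0.0952). The log2 ratio of tags per kb in ends over rest also did not pass the test, with 0.19 ± 0.08 in sham and 0.15 ± 0.02 in TBI rats (exact permutation p = 0.317).

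**Figure D3:**
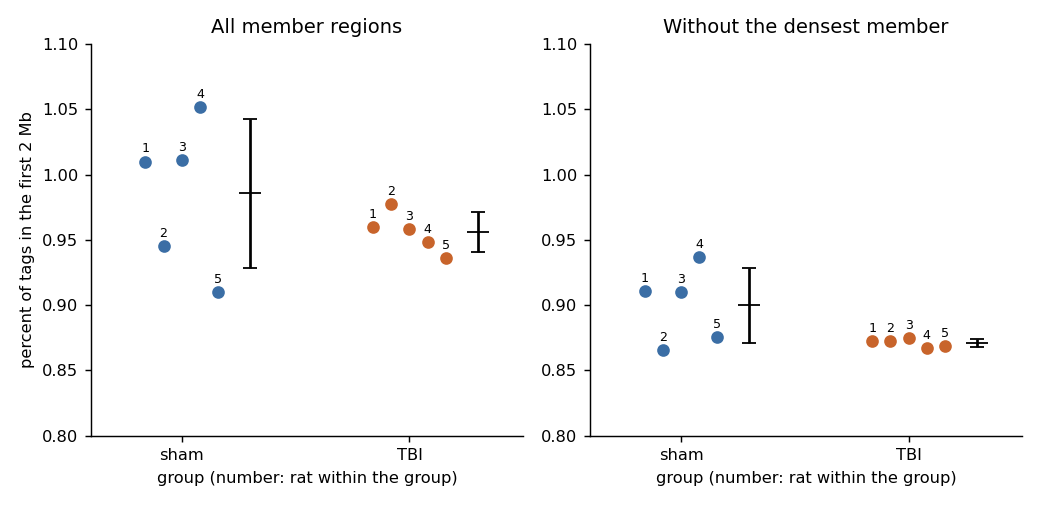
Percent of each rat's tags on 18 autosomes that fell into regions of the first 2 Mb, for 5 sham and 5 TBI rats (numbered points; the bar at the side gives the mean and SD), with all members (left) and without the most densely tagged member (right). The axis starts at 0.8% in both panels. Sham rats 2 and 5 lie below sham rats 1, 3 and 4, and all TBI rats lie within the sham range on the left.

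Chromosome by chromosome, the ends differed little between the groups. Tags of each complete end window of 2 Mb were tested in edgeR together with all other such windows, 1369 in all. None of the 18 end windows had an adjusted p under 0.05, and none of all windows did (0%). At an unadjusted p under 0.05 there was 1 end window, that of chromosome 2, while 2.41% of all windows passed. Without sham rat 5 there were 3, all lower in TBI rats (chromosomes 2, 9 and 13), while 4.89% of all windows passed. DESeq2 gave 0 end windows at either threshold, while 4.38% of all windows had an unadjusted p under 0.05 in its Wald test. The median log2 fold change of the 18 end windows was -0.037, against -0.0039 over all windows, and 12 of 18 were negative. The lowest were chromosome 9 with -0.16 ± 0.08, chromosome 17 with -0.12 ± 0.13 and chromosome 2 with -0.11 ± 0.05 (SE). The highest were chromosome 18 with 0.06 ± 0.19, chromosome 1 with 0.05 ± 0.10 and chromosome 14 with 0.04 ± 0.05.

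The end of chromosome 9 carried 268, 288, 277, 274 and 393 CPM in sham rats and 267, 259.7, 263, 264 and 269 CPM in TBI rats, here scaled to all tags of the library. Sham rat 5 was far above the others and TBI rat 5 lay just above sham rat 1, the lowest sham value, so the groups overlapped. The end of chromosome 2 carried 892, 794, 901, 939 and 851 CPM in sham rats and 835, 781, 823, 767 and 805 CPM in TBI rats. Exact permutation tests gave p = 0.0159 for chromosome 9 and p = 0.0397 for chromosome 2, with 0.286 and 0.333 after Benjamini-Hochberg adjustment over the 18 ends. No end separated the groups without overlap. Without sham rat 5 the log2 fold change of the window in edgeR was -0.07 ± 0.02 for chromosome 9 and -0.14 ± 0.05 for chromosome 2, and that of chromosome 17 turned to 0.03 ± 0.06. Sham rat 5 carried 877 CPM at the end of chromosome 17, against 489 to 624.7 in the other sham rats and 503 to 589 in TBI rats. It was lowest at the end of chromosome 3, with 967 CPM against 1530 to 2014 in the other sham rats, where the most densely tagged member lies.

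**Figure D4:**
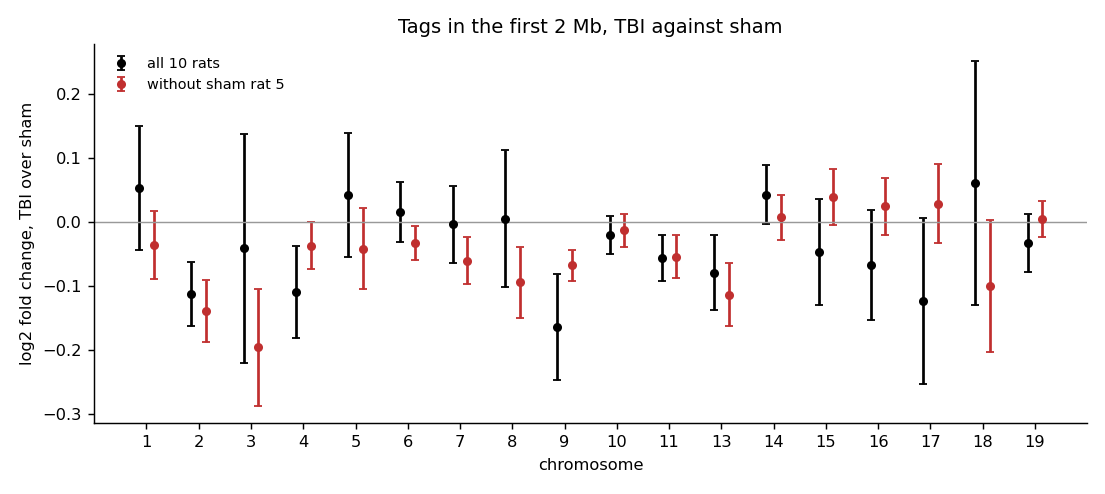
Log2 fold change of the tags in the first 2 Mb of 18 autosomes, TBI over sham, with its SE in edgeR, for all 10 rats (black) and without sham rat 5 (red). The values of chromosomes 9, 15, 16 and 17 move up without sham rat 5 while those of chromosomes 3, 8 and 18 move down.

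Of the members, 2533 (40.8%) passed the filter on low tag sums and were tested individually in edgeR, with a median of 25 tags per rat, while 49.5% of the rest passed. A further 25 members had no tags in any rat. Members that carried tags mainly in 1 group or 1 rat could pass through that group alone, so the counts below are not a sample of all members. At an unadjusted p under 0.01, the limit the study used, 16 members (0.632%) were called, while 0.266% of all tested regions were called. In simulated counts, 0.95% of regions with no planted difference reached this limit, more than either share. Of the 16 members, 2 were higher in TBI rats (0.0790% of tested members; 0.0980% of all regions) and 14 were lower (0.553%; 0.168% of all regions). None had an adjusted p under 0.05 in edgeR (0% of all regions), while 94 members (3.71%) and 2.45% of all regions had an unadjusted p under 0.05. The exact test of edgeR and the Wald test of DESeq2 called 26 members (1.03%; 0.371% of all regions) and 9 members (0.355%; 0.243% of all regions) at p under 0.01, and gave 0 members with an adjusted p under 0.05. These p-values set the group difference against the spread between rats, which was estimated in part from all tested regions together. The median log2 fold change of tested members was -0.04, against -0.02 over all regions. Both medians were -0.01 without sham rat 4, and without sham rat 5 they were -0.0425 for members and -0.0027 over all regions.

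In 12 of the 14 lower members (85.7%) sham rat 5 was the highest of all 10 rats, against 59.6% of all lower regions called, and in 6 it held at least 50% of the CPM. Of the 16 called members, 11 were still tested and 4 still called when it was left out. Called members were long, with a median of 2162 bp. Without sham rat 5, 30 of 2557 tested members (1.17%) were called, against 0.792% of all regions, 11 of them higher (0.430%; 0.397% of all regions) and 19 lower (0.743%; 0.396% of all regions). Without sham rat 4, 41 members were called (1.62%; 0.727% of all regions). Of the 41, 38 were lower (1.5%; 0.558% of all regions) and 3 higher (0.119%; 0.17% of all regions). Without sham rat 1, 26 were lower (1.03%; 0.302% of all regions). With sham rat 5 left out, no member had an adjusted p under 0.05, which 0.0039% of all regions had. In the same fit 154 members (6.02%) and 4.59% of all regions had an unadjusted p under 0.05. The members called without sham rat 5 had a median length of 890.5 bp. The values of the 2 groups did not overlap at 14 members (0.553%) with all rats, against 0.502% of all regions, and at 49 (1.92%) without sham rat 5, against 1.55%.

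A run of calls lay on chromosome 2. Of the 14 lower members, 8 lay between 1182763 and 1380092, a stretch of 197 kb. Regions there were long, and between 1.2 and 1.3 Mb and between 1.3 and 1.4 Mb from the first region they covered 48505 and 52037 bp, more than in any other step of 0.1 Mb of this end. At chr2:1281830-1293132 the sham rats had 2.37, 7.10, 2.96, 2.14 and 47.9 CPM and the TBI rats 4.26, 2.67, 2.52, 3.21 and 4.35 CPM. The other 4 sham rats thus spanned the range of the TBI rats, and the fold change of -1.87 ± 0.65 (edgeR, unadjusted p = 0.00887, adjusted p = 1) became -0.07 ± 0.24 without sham rat 5. Summed over 1.2 to 1.3 Mb from the first region, sham rat 5 had 144 CPM and the other 9 rats had 27.9 to 43.4 CPM. In the first 0.8 Mb the order was reversed in most steps, and between 0.1 and 0.2 Mb sham rat 5 had 86.4 CPM against 130.1 to 175.6 CPM.

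**Figure D5:**
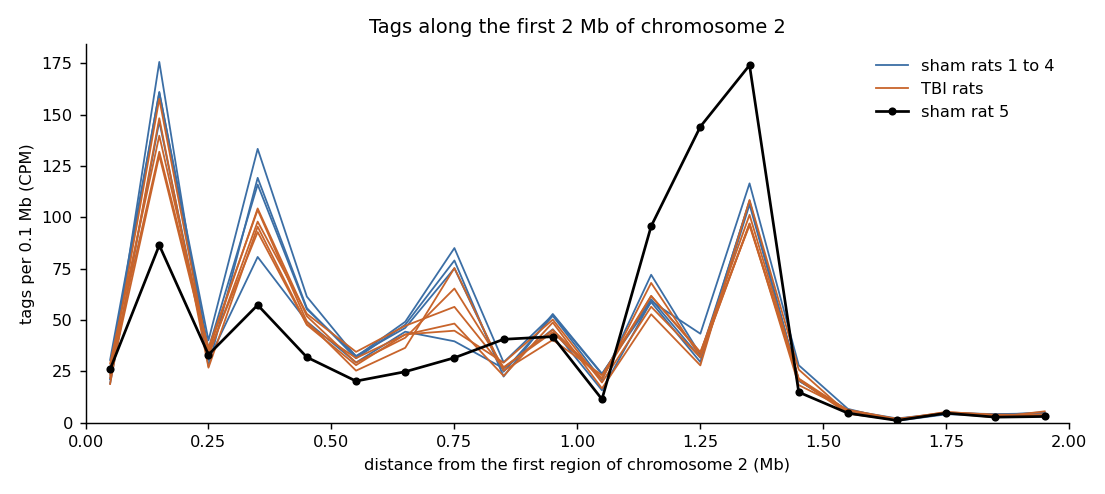
Tags in CPM per 0.1 Mb along the first 2 Mb of chromosome 2, for each of 10 rats (blue, sham rats 1 to 4; orange, TBI rats; black points, sham rat 5). Sham rat 5 lies above the other 9 rats between 1.1 and 1.4 Mb, with 144 CPM between 1.2 and 1.3 Mb, and below them in several steps of the first 0.8 Mb.

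Most of the 5 longest members lay on chromosome 2, and 3 of them within 1.2 to 1.4 Mb from its first region. The longest was chr2:1323391-1337857 (14466 bp), with 4.83, 6.33, 5.07, 4.06 and 51.7 CPM in sham rats and 3.55, 4.76, 4.39, 5.33 and 5.54 CPM in TBI rats. Next came chr2:1281830-1293132 (11302 bp), chr2:899305-908667 (9362 bp), chr3:157655-166665 (9010 bp) and chr2:1216445-1224866 (8421 bp). Sham rat 5 was the highest of 10 rats at the 4 of these on chromosome 2 and the lowest at that on chromosome 3. The 4 on chromosome 2 carried few tags for their length, with 0.468 to 0.590 CPM per kb over all rats and 0.282 to 0.338 without sham rat 5, less than the median of the rest. The region on chromosome 3 belonged to the densely tagged cluster, with 15.5 CPM per kb and 121 to 188 CPM in the other 9 rats.

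Named by the smallest p among called members whose groups did not overlap, 1 region was higher and 3 were lower in TBI rats. The higher region, chr17:630364-631052 (688 bp), had 1.06, 0.695, 1.43, 1.15 and 1.29 CPM in sham rats and 2.13, 2.09, 1.77, 2.47 and 2.12 CPM in TBI rats. Every TBI rat was above every sham rat, the log2 fold change was 0.89 ± 0.24, and it was 0.93 ± 0.25 without sham rat 5 (edgeR, unadjusted p = 0.00126 and 0.000735; adjusted p = 1 and 0.996). It rests on 9 to 43 tags per rat.

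Of the lower regions, chr16:606122-607073 (951 bp) was the most even within groups. It had 4.75, 4.48, 4.91, 4.61 and 4.07 CPM in sham rats and 3.23, 3.68, 3.43, 2.98 and 3.16 CPM in TBI rats, on 41 to 93 tags per rat. The fold change was -0.47 ± 0.15, and -0.51 ± 0.16 without sham rat 5 (edgeR, unadjusted p = 0.00477 and 0.00278; adjusted p = 1 and 0.996). At chr15:1814007-1814352 (345 bp) there were 7 to 24 tags per rat, with 1.06, 1.85, 0.9503, 0.878 and 1.49 CPM in sham rats and 0.631, 0.505, 0.353, 0.803 and 0.570 CPM in TBI rats. Here the lowest sham rat lay just above the highest TBI rat, and the fold change was -1.11 ± 0.34 (edgeR, unadjusted p = 0.00436, adjusted p = 1).

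The remaining lower region, chr2:1368851-1374016 (5165 bp), lies in the stretch where sham rat 5 was high. It had 10.3, 11.4, 9.40, 9.33 and 24.1 CPM in sham rats and 7.73, 8.81, 7.82, 8.31 and 8.80 CPM in TBI rats. The groups did not overlap, as the rule for naming required. Leaving out sham rat 5, the highest sham rat, has no bearing on that. The fold change went from -0.64 ± 0.22 to -0.28 ± 0.13 without this rat (edgeR, unadjusted p = 0.00906 and 0.0368; adjusted p = 1 and 0.996).

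The first regions of the chromosomes were looked at where an end was the highest or lowest on a measure. At chr1:31674-32276, where density was lowest, there were 1.56, 1.62, 1.74, 2.14 and 0.746 CPM in sham rats and 1.34, 1.30, 1.36, 2.24 and 2.12 CPM in TBI rats (log2 fold change 0.10 ± 0.27, edgeR, adjusted p = 1). At chr9:49403-50236 and chr18:8695-9293, the ends with the lowest and highest fold change of their window, the first region had fold changes of 0.13 ± 0.25 and -0.12 ± 0.33, so neither shared the direction of its end. The first regions of chromosomes 17 and 3, chr17:1519-2201 and chr3:11717-11989, held 0 to 19 and 3 to 11 tags per rat and did not pass the filter. Thus the 549.7 CPM per kb at chr3:143742-145177 stood 132 kb behind a first region of 1.44 CPM per kb.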

How the data were processed

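The labels and the study's methods state that hippocampal DNA was sheared, enriched with a methyl-CpG-binding protein and read as short single ends, each rat on its own. The authors aligned reads to RN4 with BWA, found regions with MACS in pairwise comparisons of samples, merged these with bedtools, dropped duplicate reads and deposited raw tag counts per region. The study's methods list 4 control and 5 TBI rats for methylation, while the labels and the matrix hold 5 of each, and which sham rat is additional is not stated. Each column was tied to a sample through its rat number (0 other columns).

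Regions with a tag sum at or above the 50th percentile (117 tags) were tested in edgeR 4.0.16 (R 4.3.3; TMM, glmQLFit and glmQLFTest, no covariates), with Benjamini-Hochberg adjustment over all 358249 regions tested. Tag sums of 2 Mb windows were tested likewise. Single values were compared by exact permutation over rats (scipy 1.17.1). DESeq2 1.42.0 and other settings were alternatives. Scripts were tested on simulated counts. Regions were named by p without overlap, by tags per kb, by length and by position at an end. Members, lists and the karyotype grouping were chosen with earlier results of these data known. Depth sets the precision, and intervals cover counting error alone. Positions are printed as deposited, and gene annotation was not used here.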

Additional observations from a re-analysis of the deposited data

Results flagged for a closer look

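Of 68 sets of 5 rats examined for a value far from the others, 9 stood out. A rate of about 1 in 20, or 3.4, holds for independent sets of normally distributed values. Here sets shared tags and some regions had been named by p from these same values, so 9 cannot be read against 3.4. In 3 of the 9 sets it was the tags of a whole end that stood out in a sham rat, each time sham rat 5. The end of chromosome 9 had 392.9 CPM in this rat and 288.4 in the next highest, that of chromosome 4 had 245.1 CPM against 196.3, and that of chromosome 6 had 1067 CPM as the lowest value, against 1189 in the next. In 5 more it was a region of chromosome 2 at which sham rat 5 was the highest sham rat. These were the regions starting at 1323391 (51.74 CPM, next 6.33), 1281830 (47.94 CPM, next 7.10), 899305 (26.31 CPM, next 5.79), 1368851 (24.14 CPM, next 11.4) and 1216445 (17.43 CPM, next 4.22). At the last of these, TBI rat 4 also stood out among the TBI rats, with 3.783 CPM against 2.887 in the next.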

How the results depend on the processing

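No paired analysis was possible because sham and TBI rats carry different rat numbers. For the 9 measures set between ends and rest or between groups, 105 of 125 values stayed alike, meaning the same direction and side of the threshold for a test, within 1.5 times for a count, and within the 95% interval or 1 SD for other values. The pooled tags per kb of ends over rest turned from a log2 ratio of 0.17 to -0.041 with equal weight for each chromosome and to -0.36 for the median region. The density ratio moved from 0.624 to 0.514 for regions above the tag filter, 0.602 for ends of 1 Mb and 0.833 for ends of 5 Mb, where the length ratio was 0.962. The number of members with an unadjusted p under 0.01 was 16 (0.632%; 0.266% of all regions). It became 9 with total tags alone (0.355%; 0.265% of all regions). Without the filter it was 57 of 6181 members tested (0.922%; 0.535% of all regions). It was 26 in the exact test (1.03%; 0.371% of all regions) and 9 in DESeq2 (0.355%; 0.243% of all regions). It ranged from 5 to 41 when single rats were left out. Without sham rats 1, 4 and 5 it was 29, 41 and 30 (1.15%, 1.62% and 1.17%; 0.433%, 0.727% and 0.792% of all regions). Without TBI rats 1 to 5 it was 7, 8, 5, 10 and 9 (0.275%, 0.316%, 0.197%, 0.395% and 0.353%; 0.199%, 0.196%, 0.171%, 0.178% and 0.263% of all regions). The calls over all regions went from 952 to 1555, 2618 and 2841 and to 717, 703, 613, 639 and 943 in the same order. No member had an adjusted p under 0.05 in any of these settings. The median log2 fold change of members moved from -0.04 to -0.16 without the filter, and ranged from -0.0486 to -0.0097 when single rats were left out. The share of tags in ends did not pass the test in any setting run. Of 142 values of named regions, 17 lost an unadjusted p under 0.01 and 6 changed sign, all at regions with p above 0.5. Log2 fold changes after the change of sign were 0.0734 without sham rat 4 and 0.0147 without TBI rat 5 at chr3:143742-145177, 0.0398 and 0.0337 without sham rats 1 and 4 at chr3:555391-557427, 0.00578 without sham rat 4 at chr2:771091-772469 and 0.0297 without sham rat 1 at chr7:955112-957254. At these 4 regions the values with single rats left out were lowest without sham rat 5, at -0.239, -0.257, -0.294 and -0.290. The cause of these shifts was not tested. Depth limits single members, with a median of 9 tags per rat.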
